A study of Mus musculus with 2 samples.

Results

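The set described here is the interleukins and interleukin receptors, 79 of the 19506 named genes that the array carries. A gene belonged to it when the deposited array annotation gave it a name of Il followed by a digit and its spots were not controls. The neutrophil chemokine receptors Il8ra and Il8rb were left out, since they are chemokine receptors in spite of those names. The rule uses names only and no measured value. The 79 genes were represented by 118 probes on 181 spots, and 50 of the genes had 1 probe only.

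The material was 2 subcutaneous mouse tumours grown from RMS3, which the labels call a PRMS cell line without writing the abbreviation out. For each tumour 1000000 RMS3 cells in 200 µl of PBS were placed under the skin of C57BL/6J mice, all male, with removal 2 weeks later. The genotype and origin of the line and the age of the mice are not given in the sources used here. The treatment protocol speaks of metastatic tumours, whereas the other labels describe growths from subcutaneous injection. Both tumours come from the same line and form 1 group with no control, and each was hybridised to its own single-colour (Cy3) Agilent array. The comparison is therefore of which interleukins each tumour expressed above background and how far the 2 tumours lay apart. With 1 tumour on each side no p-value can be given, and precision is limited by how few arrays there are.

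Interleukins are secreted proteins through which immune, stromal and epithelial cells signal to each other. Most receptors are built from a chain that binds a particular ligand and a chain that several receptors share, such as gp130 (Il6st) in the interleukin-6 family or the common gamma chain (Il2rg) in the receptors for interleukins 2, 4, 7, 9, 15 and 21. Receptors of these classes signal through Jak kinases and Stat factors, whereas receptors of the interleukin-1 and interleukin-17 families signal through adaptor proteins towards NF-kB. In tumours, interleukins are known both from the malignant cells and from macrophages, neutrophils, lymphocytes and fibroblasts around them.

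Levels are log2 signals relative to the 75th percentile of the array, and a difference is tumour 2 minus tumour 1 on that log2 scale. Levels compare the 2 tumours for 1 gene and do not rank genes against each other. Array 1 had 1128 spots with an outlier flag against 69 on array 2. Spots within 2 rows and columns of such an area were therefore left out, which kept 132 of the 181 interleukin spots (72.9%, against 72.2% of all non-control spots). The standard deviation of repeat spots was 0.23 on array 1 and 0.14 on array 2, so that of a difference from single spots was 0.27. On array 1, 11 of 1254 repeat spots still lay over 2-fold below the median of their probe, against 2 of 1320 on array 2. Well above background were 62.3% of non-control spots on array 1 and 66.1% on array 2.

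RefSeq (GRCm38.p6) gave promoter windows for 61 of the 79 genes. Those of 3 genes on which the results below turn are shown for the 250 bases before the annotated start, in the gene's own direction. They are Il6, whose difference varied least between repeat spots among the 4 repeat-printed genes above background, and Il1rl1 and Il7r, both at least 2-fold higher in tumour 1. Il1rl1 has 2 annotated starts, and the probes do not tell which was used. Capitals mark matches on either strand to the letters GGGANNTTC (NF-kB), TGANTCA (AP-1), TTGCNNAA (C/EBP), TTCNNNGAA (Stat) and AGATAA, the last being bound by factors of the GATA family.
Il6, chr5:30012864-30013113, plus strand: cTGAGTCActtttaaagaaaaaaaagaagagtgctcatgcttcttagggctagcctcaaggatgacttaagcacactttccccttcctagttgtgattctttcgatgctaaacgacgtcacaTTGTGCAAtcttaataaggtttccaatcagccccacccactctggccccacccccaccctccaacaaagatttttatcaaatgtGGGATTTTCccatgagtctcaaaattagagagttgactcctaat
Il1rl1 upstream start, chr1:40429320-40429569, plus strand: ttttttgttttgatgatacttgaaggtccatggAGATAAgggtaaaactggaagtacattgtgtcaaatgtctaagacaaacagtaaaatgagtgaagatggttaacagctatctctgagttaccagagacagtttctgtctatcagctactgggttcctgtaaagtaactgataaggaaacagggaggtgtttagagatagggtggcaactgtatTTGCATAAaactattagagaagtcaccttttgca
Il1rl1 downstream start, chr1:40439379-40439628, plus strand: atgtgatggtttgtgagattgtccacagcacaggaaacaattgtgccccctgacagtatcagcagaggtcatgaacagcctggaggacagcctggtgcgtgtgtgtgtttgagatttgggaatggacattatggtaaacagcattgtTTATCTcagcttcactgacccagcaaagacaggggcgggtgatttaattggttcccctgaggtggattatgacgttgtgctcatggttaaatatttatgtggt
Il7r, chr15:9529877-9530126, minus strand: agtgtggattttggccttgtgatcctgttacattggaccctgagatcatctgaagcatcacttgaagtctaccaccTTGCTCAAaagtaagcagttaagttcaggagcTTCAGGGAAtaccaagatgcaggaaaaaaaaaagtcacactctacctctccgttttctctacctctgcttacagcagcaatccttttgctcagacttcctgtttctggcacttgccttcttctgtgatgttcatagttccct
The Il6 window held the NF-kB letters from base -44 to -36, the C/EBP letters from -128 to -121 and the AP-1 letters from -249 to -243, counted back from the start. The upstream Il1rl1 window held C/EBP letters from -34 to -27 and GATA letters from -217 to -212, and the downstream window GATA letters from -103 to -98. In Il7r, C/EBP letters lay from -174 to -167 and Stat letters from -142 to -134. Over all 32851 promoter windows of the same length, 3.23% held the NF-kB letters, 6.75% AP-1, 9.56% C/EBP, 7.02% Stat and 9.99% GATA. Among the 75 windows of the interleukin genes, 4 held NF-kB letters (5.33%), 14 AP-1 (18.7%), 11 C/EBP (14.7%), 8 Stat (10.7%) and 12 GATA letters. The cyclic AMP response letters TGACGTCA were also searched and lay in 1.55% of all windows and in none of the interleukin windows. A match is a description of the letters only, and the arrays did not measure binding.

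Of the 79 genes, 62 had a spot away from flags, and 34 of these were above background in both tumours. The share of all measured genes that were above background in both was 69.4% (11140 of 16056). Described by role, both tumours carried 20 of 30 measured receptors and 11 of 28 measured ligands, together with both measured antagonists (Il1rn and Il18bp) and the decoy receptor Il1r2. By family, 9 of 12 measured genes of the interleukin-1 family, 6 of 8 of the interleukin-6 family and 7 of 14 of the common gamma chain family were above background in both. The common gamma chain family was counted with Il13, Il13ra1 and Il13ra2, although interleukin-13 is not among the ligands listed above for that chain. The counts were 2 of 6 for the interleukin-12 family, 4 of 10 for the interleukin-10 family, 4 of 9 for the interleukin-17 family and 1 of 2 for the common beta chain family. Another 2 genes were above background in tumour 1 only, 2 in tumour 2 only and 24 in neither tumour. The remaining 17 genes had no spot away from flags. In bulk tumour RNA, fewer cells of a type and less RNA per cell cannot be told apart.

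**Figure D1:**
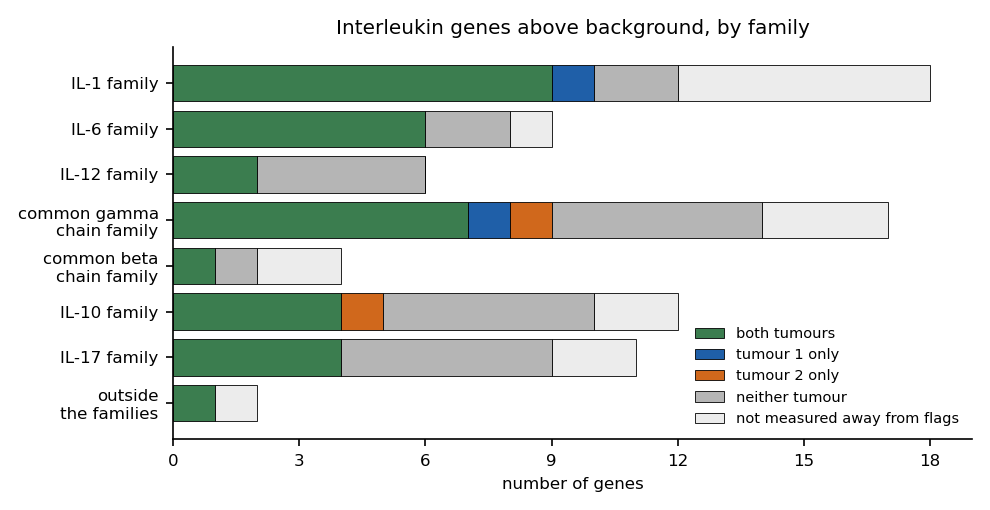
Number of interleukin genes in each family by whether they were above background in both tumours, 1 tumour, neither, or had no spot away from flags (x axis, genes). The interleukin-1 and interleukin-6 families had 9 of 12 and 6 of 8 measured genes in both tumours, and the interleukin-12 family 2 of 6.

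The 2 tumours lay close for most of the 34 genes. Differences ran from -1.32 (Il1rap) to 0.73 (Il6ra) with a median of -0.11, against a median of 0.02 and a standard deviation of 0.51 over all 11140 genes. Of the 34 genes, 22 were higher in tumour 1 and 12 in tumour 2. Over all genes, 48.0% were higher in tumour 1 and 52.0% in tumour 2. At least 2-fold higher in tumour 1 were 3 genes, all of them receptor chains, namely Il1rap, Il1rl1 and Il7r (background over all genes 1.97%). None was at least 2-fold higher in tumour 2 (background 2.60%). Among dim genes, with a mean level under -2, the background was 4.06% for tumour 1 and 3.93% for tumour 2, and Il1rap and Il7r are such genes.

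**Figure D2:**
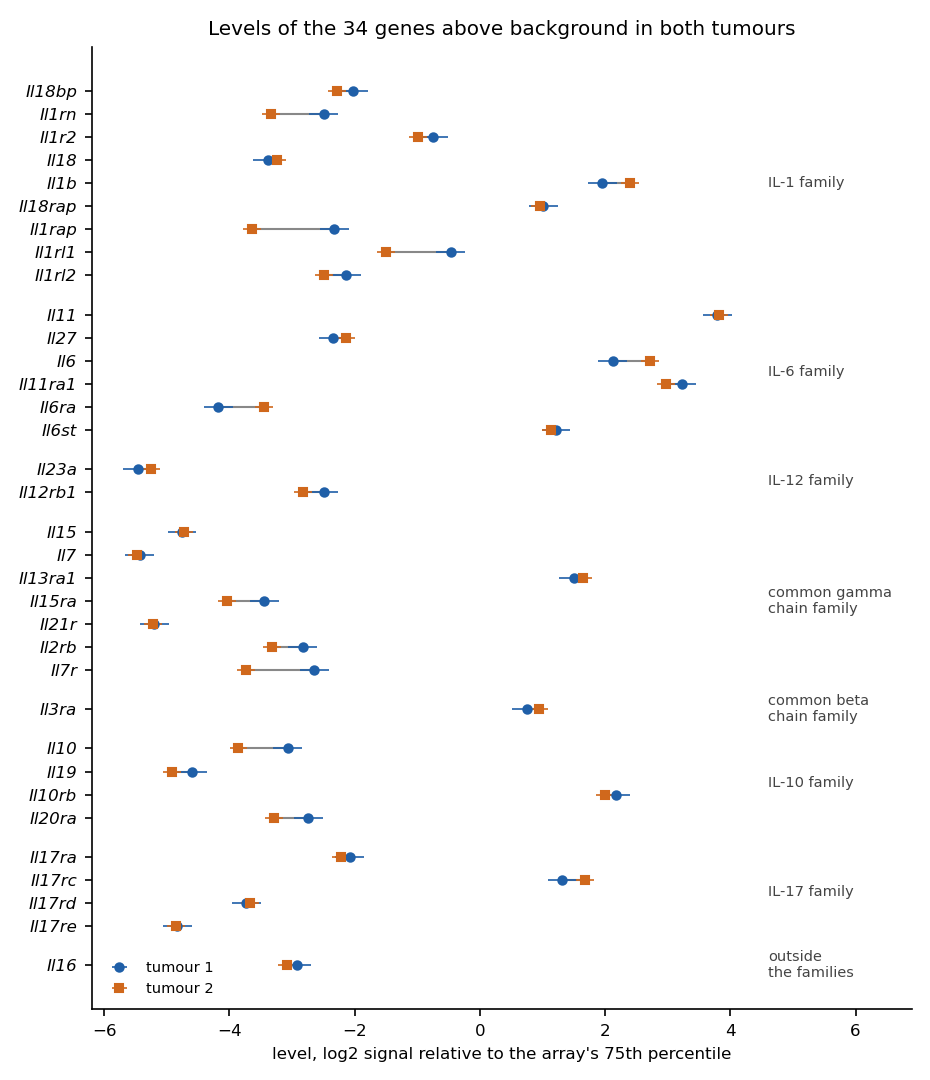
Levels of the 34 genes in tumour 1 (circles) and tumour 2 (squares), as log2 signal relative to the 75th percentile of the array; horizontal bars are 1 standard deviation of repeat spots on that array. The symbols lie furthest apart for Il1rap, Il1rl1 and Il7r, whose tumour 1 values are the higher ones.

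Il1rl1 encodes ST2, the receptor chain for interleukin-33, carried by mast cells, type 2 lymphocytes and regulatory T cells. Its gene level was -0.47 in tumour 1 and -1.49 in tumour 2, and the median probe difference was -1.11, or 2.16-fold. All 3 of its probes were lower in tumour 2, by -1.23, -1.11 and -0.73. The levels of the brightest probe were 1.74 and 0.51. The probes lie on parts of the array where the local median difference of neighbouring spots ran from -0.05 to -0.32, and after centring on those blocks the difference was -0.79. It was at least 2-fold apart in 10 of 14 other settings and higher in tumour 1 in all 14.

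Il7r encodes the alpha chain of the interleukin-7 receptor, which T cells and innate lymphoid cells need to survive. Its level was -2.65 in tumour 1 and -3.73 in tumour 2, so it differed by -1.08 or 2.12-fold. Only 1 of its 3 probes was above background, so this value rests on a single spot per array. Its ligand Il7 had levels of -5.43 and -5.47 and a difference of -0.04, which is under the standard deviation of a single-spot difference.

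Il1rap encodes the accessory chain shared by the receptors for interleukins 1, 33 and 36. The gene level was -2.32 in tumour 1 and -3.65 in tumour 2, and it differed by -1.32 or 2.50-fold. This value was the middle of 2 probes that disagreed. The brighter probe was -1.85 and -2.10 (difference -0.25), and the dimmer one was -2.80 and -5.19 (difference -2.39). With the brightest probe alone, the difference was -0.25. Another 2 probes lay near flags and went opposite ways, with -1.50 and 3.57. Whether the probes report different transcript forms was not tested.

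Of the other interleukin-1 genes, Il1rn, which encodes the receptor antagonist that blocks interleukin-1 signalling, was -2.49 in tumour 1 and -3.33 in tumour 2 (difference -0.84, from 1 detected probe of 2). The decoy receptor Il1r2 was -0.74 and -0.99. Il18bp, which binds and neutralises interleukin-18, was -2.02 and -2.28 (difference -0.26), and turned to 0.68 when a probe near flags was included. Il1rl2, the interleukin-36 receptor chain, was -2.14 and -2.48 as the mean of 2 probes of very unequal brightness. The brighter was 1.18 and 0.59 (difference -0.59), and the dimmer -5.45 and -5.56 (difference -0.11). Il18rap, the accessory chain for interleukin-18, was 1.01 and 0.96, whereas its partner Il18r1 was above background in neither tumour. Il1rapl2, a receptor-like protein of the same family, was also in neither.

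The inflammasome-processed cytokines Il1b and Il18 were each printed 10 times. The 7 spots of Il1b away from flags had a median of 2.30 in tumour 1 (from -0.51 to 2.55) and of 2.40 in tumour 2 (from 2.33 to 2.50). Their mean difference of 0.45 rested on 1 spot of array 1 that lay over 2-fold below the others. Without that spot, the difference was 0.04 ± 0.08 (SD, 6 spots), so the tumours were alike within 0.12 at every remaining spot. For Il18, 6 spots ran from -5.27 to -2.89 in tumour 1 and from -3.52 to -3.04 in tumour 2. Its mean difference of 0.14 became -0.25 ± 0.11 (SD, 5 spots) without 1 such spot, and 1.15 when all spots were used. These standard deviations cover spots on an array and not differences between arrays. Il1a, the alpha form, was above background in tumour 1 only with both of its probes, which gave bounds of at least 2.77-fold and at least 2.48-fold.

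Il6, an inflammatory cytokine of many cell types, was printed 10 times, and its 8 spots away from flags ran from 1.98 to 2.28 in tumour 1 and from 2.54 to 2.83 in tumour 2, with no overlap. Each of the 8 spots was higher in tumour 2, by 0.59 ± 0.04 (SD, 8 spots) or 1.51-fold. The spots are repeats of 1 probe on 1 array per tumour, so this standard deviation covers spots only. The standard deviation of the differences over all genes was 0.51. Il6ra, the chain that binds interleukin-6, was -4.17 in tumour 1 and -3.45 in tumour 2. Its 2 probes were both higher in tumour 2, by 0.62 and 0.84, which gives 0.73. The shared signalling chain Il6st was 1.22 and 1.13 (difference -0.09).

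Il11, a related cytokine of stromal cells, was 3.79 in tumour 1 and 3.82 in tumour 2 from a single spot, only 0.02 apart. Its receptor chain Il11ra1 was 3.22 and 2.97, with probe differences of -0.33 and -0.18. Il27, a subunit of interleukin-27, was -2.34 and -2.14. Its partner subunit Ebi3 was -2.79 and -3.09. Il31 and Il31ra were above background in neither tumour.

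**Figure D3:**
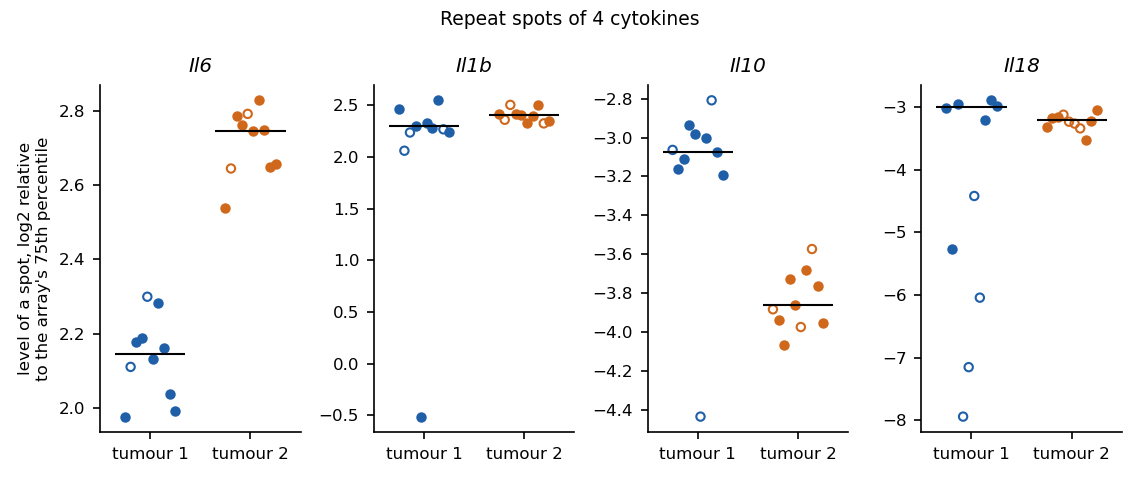
Level of each of the 10 repeat spots of Il6, Il1b, Il10 and Il18 in both tumours (y axis, log2 relative to the 75th percentile); filled symbols lie away from flags, open ones near flags, and the line is the median of the filled symbols. The Il6 and Il10 spots away from flags do not overlap between tumours, and Il1b and Il18 each have 1 filled spot far below the rest on array 1. All spots of a gene are repeats of 1 probe on 1 array per tumour.

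In the interleukin-10 family, Il10, a cytokine that restrains macrophages, was lower in tumour 2. Its 7 spots away from flags ran from -3.19 to -2.94 in tumour 1 and from -4.06 to -3.68 in tumour 2, with no overlap. The difference was -0.79 ± 0.10 (SD, 7 spots) or 1.73-fold. Here too the spots are repeats of 1 probe on 1 array per tumour. The interleukin-10 receptor chain Il10rb was 2.17 and 1.99 with 1 probe. Its other probe was above background in tumour 1 only, with a bound of at least 1.86-fold. Il10ra, the ligand-binding chain, had no spot away from flags; its spot near flags gave -4.66 and -3.20. Il19 was -4.59 and -4.92, and Il20ra, a receptor chain for interleukins 19, 20 and 24, was -2.74 and -3.28 (difference -0.54). All 4 genes of this family with a difference were higher in tumour 1, against 48.0% of all genes. Il22, Il28, the receptor chain Il22ra1 and the decoy receptor Il22ra2 were above background in neither tumour. Il24 was in neither with its probe away from flags, whereas its other probe, near flags, was above background in tumour 2 only and at least 2.46-fold higher there. Il28ra, a receptor chain for type III interferons, was above background in tumour 2 only, too faintly for a bound.

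Among genes of the common gamma chain family, Il15 and 2 chains of its receptor were above background in both tumours. Il15, which supports natural killer cells, was -4.76 and -4.73 (difference 0.03). Its presenting chain Il15ra was -3.45 in tumour 1 and -4.03 in tumour 2, with probe differences of -0.62 and -0.55. The signalling chain Il2rb, shared with interleukin-2, was -2.83 and -3.33 (difference -0.50). Il2ra, the chain that raises the affinity for interleukin-2 on regulatory T cells, was above background in tumour 1 only, with 2 of its 3 measured probes. These probes gave unequal lower bounds, of at least 3.81-fold and at least 1.70-fold. Il21r was -5.20 and -5.21, near the detection limit of array 1 (-5.78).

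The T cell cytokines Il2, Il4, Il9 and Il21, and the interleukin-9 receptor chain Il9r, were above background in neither tumour. For Il2 and Il4, which were printed 10 times, this rests on 9 and 8 spots away from flags. Of these, 1 spot of Il2 in tumour 1 and 1 spot of Il4 in tumour 2 were above background. Il13 was above background in tumour 2 only, too faintly for a bound. Il13ra1, a receptor chain for interleukin-13, had a mean level of 1.57 ± 0.10 (SD, n = 2), with probe differences of -0.09 and 0.38. The shared chain Il2rg had no spot away from flags. Near flags it was -1.58 and -0.58.

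In the interleukin-12 family, which steers T helper responses, Il12a and Il12b were above background in neither tumour, the latter with 0 of 7 spots on either array. Il23a was -5.47 and -5.24, and Il12rb1 was -2.49 and -2.82. The chains Il12rb2 and Il23r, which complete the receptors for interleukins 12 and 23, were above background in neither tumour. Il3ra, of the common beta chain family, was 0.75 and 0.95 while its ligand Il3 was not above background.

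Of the interleukin-17 ligands with a spot away from flags (Il17a, Il17b, Il17f and Il25), none was above background in either tumour. The ligands Il17d and Il17c had spots only near flags. There Il17d was above background in both tumours (0.09 and 0.62) and Il17c in neither. Away from flags, 4 of the 5 receptor chains were above background in both. Il17ra, the chain common to these receptors, was -2.08 and -2.21. Il17rc, its partner for interleukins 17A and 17F, was 1.32 in tumour 1 and 1.67 in tumour 2, with probe differences of 0.31 and 0.40. A further, dim Il17rc probe was above background in tumour 2 only, with a bound of at least 2.29-fold. Il17re was -4.83 and -4.85. The 2 probes of Il17rd, a receptor-like inhibitor of Fgf signalling, disagreed in sign (-0.30 and 0.41). Il17rb, the interleukin-25 receptor chain, was above background in neither. Il16, a chemoattractant for CD4 cells outside these families, was -2.93 and -3.07 with 1 probe (difference -0.15). Its second probe was above background in tumour 1 only, with a bound of at least 5.22-fold, so the 2 probes disagreed in size. The gene difference was -1.27 with the looser detection call (positive and significant signal) and without a detection filter.

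**Figure D4:**
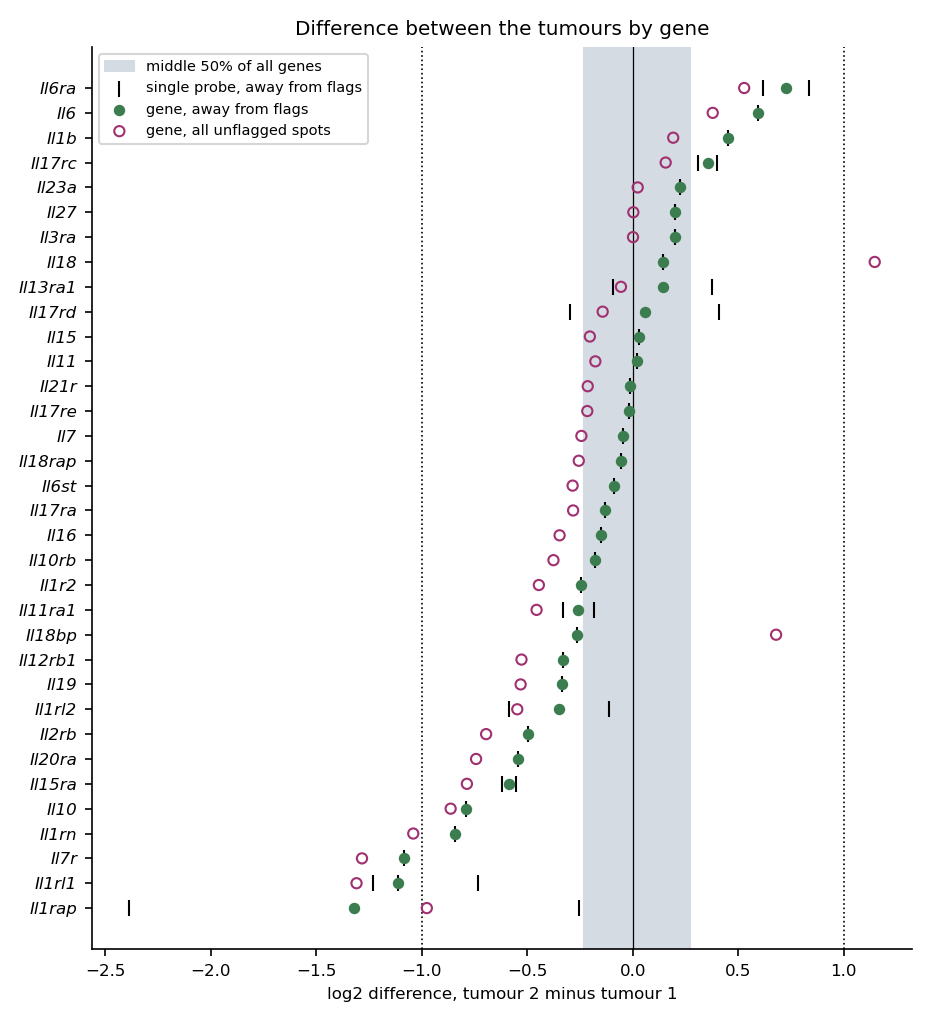
Difference of each of the 34 genes (x axis, log2, tumour 2 minus tumour 1): filled circles from spots away from flags, ticks for single probes, open circles from all unflagged spots, the shaded band the middle 50% of all genes and dotted lines 2-fold. Il1rap, Il1rl1 and Il7r lie past the lower dotted line, Il6ra and Il6 lie highest among the filled circles, and the open circle of Il18 (1.15) is far from its filled one (0.14).

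Set beside each other as ligand and receptor, 26 signals were compared by textbook pairing. For 3 of them, every ligand and receptor chain was above background in both tumours, namely interleukins 6, 11 and 19. The last of these counts Il20rb, whose probes stand under the older name Fndc6. For 4 signals (interleukins 3, 17A, 17C and 17F) the receptor chains were above background in both tumours and the ligand was not, with the Il17c spot only near flags. For 6 signals the ligand was above background in both tumours and a receptor chain was not or had no spot away from flags. For the other 13 signals, both the ligand and a receptor chain fell short of this or had no such spot. In 13 of the 26 signals some chain had no spot away from flags, which limits these counts. With all unflagged spots, 4 signals still had a chain without a spot. With all unflagged spots, interleukins 7, 10 and 15 joined the first group, which made 6 signals. Il1r1, the signalling receptor for interleukin-1, and Il4ra, that for interleukins 4 and 13, had no unflagged spot at all.

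Of the 79 genes, 38 stood in 14 runs of direct neighbours in the RefSeq order of protein-coding genes. In the run Il1r2, Il1r1, Il1rl2, Il1rl1, Il18r1 and Il18rap, the differences were -0.25 for Il1r2, -0.35 for Il1rl2, -1.11 for Il1rl1 and -0.06 for Il18rap, and the other members had none. In the run Il24, Il20, Il19 and Il10, the differences were -0.33 for Il19 and -0.79 for Il10.

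The 17 genes with spots only near flags are given from all unflagged spots, where array 1 can have lost signal. Above background in both tumours were 5 of them. Il2rg and Il10ra are given above. Il17d was 0.09 in tumour 1 and 0.62 in tumour 2, the decoy receptor Il13ra2 was -3.68 and -3.57, and Il1f9, an interleukin-36 ligand, was -5.16 and -5.53. Above background in tumour 2 only were Il1f8, Il1f5 and Il4i1. In neither tumour were Il1f6, Il1f10, Il27ra, Il5, Il5ra, Il20 and Il17c. With these spots included, 39 of the 77 genes with an unflagged spot passed in both tumours, where the background over all genes with such a spot was 68.3%. At least 2-fold higher in tumour 1 were then 3 (Il1rl1, Il7r and Il1rn, background 3.49%) and in tumour 2 another 2 (Il18 and Il10ra, background 5.15%).

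Genes downstream of the receptors were expressed in both tumours. All 10 measured Jak kinases and Stat factors were above background in both, with 1 at least 2-fold apart and a median difference of -0.14. Of these, Jak2 was -0.67 and -1.06, Jak3 was -3.42 and -3.12, and Stat5b was -4.83 and -6.03 (difference -1.20, but 0.07 with all unflagged spots). Stat3, which transmits interleukin-6 and interleukin-10 signals, was 0.37 and -0.20. Of the feedback inhibitors, 8 of 8 measured were above background, with a median of -0.10. Socs3 was 5.95 and 5.60, and Socs2 was -1.73 and -3.01 (difference -1.28, but 0.09 with all unflagged spots). In the interleukin-1 receptor cascade, 10 of 11 measured genes were above background, none at least 2-fold apart, with a median of -0.01. Its adaptor Myd88 was 0.32 and 0.12, and the kinases Irak1 and Irak2 were -0.28 and 0.25 in tumour 1 against 0.40 and 0.47 in tumour 2. Of the inflammasome genes, Nlrp3 was -5.48 and -5.64, Pycard was -0.63 and -1.15 and Gsdmd was 2.00 and 2.27, and the others had no spot away from flags. The median difference of these 3 was -0.16 and became -0.72 over 5 genes with all unflagged spots.

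Genes known to respond to interleukins were split by group. For the counts above background, the share over all measured genes was 69.4% in both tumours. Of 9 measured genes that respond to interleukins 4 and 13, 6 were above background in both tumours, with a median of -0.80. Of the 6, 5 were higher in tumour 1 (48.0% of all genes were) and 3 at least 2-fold (1.97% of all genes). The 3 were the eosinophil chemokine Ccl11 (-1.90 and -3.45), the macrophage lectin Clec10a (1.59 and 0.58) and the matrix protein Postn (4.36 and 3.05). Arg1 of this list was 0.08 and -0.28, and Retnla was above background in neither tumour. All 8 measured genes of the interleukin-6 and Stat3 response were above background in both, none at least 2-fold apart, with a median of -0.05. With all unflagged spots this median was -0.33, with 8 of 10 genes higher in tumour 1 and 1 of them at least 2-fold (Saa3, -1.68), where the median of all genes was -0.15. Away from flags, Junb was 6.91 and 7.31. Of 6 measured interleukin-17 response genes, the median was 0.38 and 4 had their higher value in tumour 2 (52.0% of all genes did). With all unflagged spots the median of 10 genes was 0.09, and 2 were at least 2-fold higher in tumour 1 (Cxcl5, and Mmp13 at -2.35). Lcn2 was -1.28 and -0.88, and Cxcl5, a neutrophil chemokine, was -0.67 and -2.26 (difference -1.59). Of 20 measured partner genes outside these names, 18 were above background in both, with a median of -0.01. Osm, which signals through gp130, was -3.63 and -2.78, and Lifr was -1.47 and -1.52.

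Markers of the cell types that carry these genes also differed between the tumours. Of all measured genes, 69.4% were above background in both. Over all genes, 48.0% were higher in tumour 1 and 52.0% in tumour 2. All 4 neutrophil markers above background in both tumours, of 5 measured, were higher in tumour 2 (median 0.47). Their summed level, in linear units of the 75th percentile, was 68.5 in tumour 1 and 89.3 in tumour 2. Most of both sums came from S100a9, whose log2 level was 5.81 and 6.17. Such a sum is weighted towards the brightest probes of a list, and it compares the tumours without ranking lists or genes. Of the 34 interleukin genes with a difference, 12 were higher in tumour 2 and 22 in tumour 1. Of 8 measured natural killer markers, 4 were above background in both tumours, 1 in tumour 1 only and 3, Ncr1 among them, in neither. Those 4 were all higher in tumour 1 (median -0.51, summed level 0.267 and 0.174), and all were dim, with levels under -2. Of 11 measured T cell markers, 5 were above background in both, with summed levels of 0.522 and 0.489, and Cd4 and Cd8a were in neither. Of 5 measured mast cell markers, 4 were above background in both tumours, all with levels under -2, and 3 of those were higher in tumour 2 and 1 in tumour 1. None of 3 measured eosinophil markers was above background, and 1 of 5 B and plasma cell markers was. The summed level of macrophage markers was 15.7 and 14.4 (10 of 11 above background), and that of dendritic cell markers 0.597 and 0.418 (5 of 6). Fibroblast markers were higher in tumour 1 for 6 of 6 (summed level 25.7 and 18.5), and endothelial markers for 6 of 8 (5.18 and 3.77). Of 7 measured keratinocyte markers, 5 were above background in both tumours and 1 in tumour 2 only, with summed levels of 4.79 and 5.94. Of these, Krt5 and Krt14 were higher in tumour 2 by 3.55 and 3.64, and the other 3 lay between -0.09 and 0.26. Most of both sums came from 1 of these 3, Lor, whose log2 level was 2.10 and 2.16. All 7 measured muscle lineage markers were above background, 5 higher in tumour 2 and 2 (Myod1 and Myf6) higher in tumour 1. Their summed levels of 4.92 and 9.31 were carried mostly by Myh8, whose log2 level was 2.02 and 2.99. The part of any cell type in the interleukin differences was not tested.

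**Figure D5:**
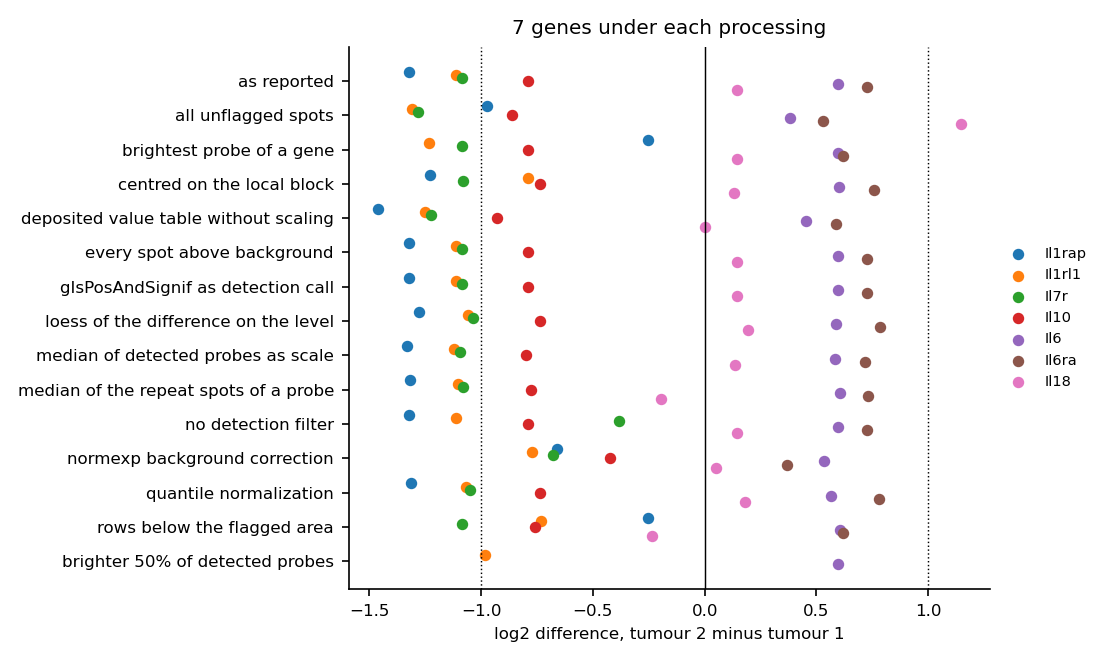
Difference of 7 genes (x axis, log2, tumour 2 minus tumour 1) under each processing (y axis); dotted lines mark 2-fold. Il10, Il6 and Il6ra kept their sign in every setting that gave a value, Il1rap ran from -1.46 to -0.25, and Il18 changed sign.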

How the data were processed

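Expression was measured in 2 tumours, 1 array each. Trizol served to extract total RNA, of which 1.0 µg was labelled with Cy3, per the labels' protocols. The deposited intensity values are the processed signal intensity that Agilent Feature Extraction wrote. Its version is 9.1.3.1 per the file headers, whereas the submitters' processing notes name version 8. The deposited value table held the same intensity at all 45018 spots, with medians of 63.3 and 67.5.

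Each processed signal was divided by the 75th percentile of its array (995 and 901.9) and put on the log2 scale. Spots with a non-uniform or population-outlier flag were dropped, as were spots within 2 rows and columns of a flag of array 1 or of a spot of array 2 with a local background above 100. Repeat spots were averaged per probe. A probe was above background when at least 50% of its spots were well above background. A gene's level is the mean over its probes detected on both arrays, and its difference the median over those probes. For a gene above background on 1 array alone, the fold is a lower bound against the lowest level called on the other array or its own signal, whichever was higher, given per probe. A difference of at least 2-fold was the size named, without a test, since there is 1 group. The labels do not say whether the 2 tumours came from separate mice or cultures of the line. Slide and scan could not be tested as batches.

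The text may name every gene of the set. Genes above background on both arrays are given with values. Of each other list, the rule allows the first 3 genes and, in pathway lists, those at least 2-fold apart. Some allowed genes go unnamed, several of them for want of a spot away from flags. Stat3, Ebi3, Pycard, Gsdmd, Saa3, Mmp13, Cd4, Cd8a, Lor and Myh8 were named after their values were seen. The set is defined by gene names alone, but the choice of this set, like the lists, pairings and promoter letters, was made with earlier results of these data known. Alternatives were other spots, scalings, detection calls, probe choices, normexp (offset 50), loess (span 0.3), centring on 5 rows and columns around a spot, the brighter 50% of probes, and each tumour left out. The median of repeat spots, and repeat spots without the lost ones, were added after seeing the data. Symbols of 77 of the 79 genes equal the RefSeq symbol; Il28ra and Il28 are Ifnlr1 and Ifnl3 there. Python 3.11.15, pandas 2.3.3 and R 4.3.3 with limma 3.58.1 were used, and the procedure was tested on simulated data.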

Additional observations from a re-analysis of the deposited data

How the results depend on the processing

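Of 62 measured genes, 34 were above background in both tumours. This became 39 of 77 with all unflagged spots, 46 of 62 with the looser detection call and 20 of 39 with rows below the flagged area only. Over all genes, the count of 11140 became 13121, 12847 and 6724 in the same order. When either tumour was judged alone, 36 genes of the set were above background (lowest 36, highest 36). Towards tumour 1, the 3 genes past 2-fold became 0 with normexp and 0 with the brighter 50% of probes. The latter setting gave a value for only 13 of the 34 genes, with Il1rl1 at -0.98 and no value for Il1rap and Il7r. The count was 1 with rows below the flagged area, 5 without a detection filter and 6 with the looser detection call. Towards tumour 2, the count of 0 became 2 with all unflagged spots, 3 without a detection filter and 1 with the looser call. Over all genes, the share at least 2-fold higher in tumour 1 was 1.97% as reported, 0.646% under normexp and 0.823% with the brighter 50%. It was 1.95% with rows below the flagged area, 3.59% without a detection filter and 3.38% with the looser call. Towards tumour 2 the share was 2.60% as reported, 5.15% with all unflagged spots, 3.98% without a detection filter and 3.81% with the looser call. The median difference of the set stayed between -0.26 and -0.06, while that of all genes ran from -0.15 to 0.05. No value of a gene at least 2-fold apart reversed in sign. Il1rl1 was at least 2-fold apart in 10 of 14 settings, Il7r in 11 of 13 and Il1rap in 9 of 13. No paired analysis was possible because there is only 1 group. Signal over background limits the dim genes. The lowest level called was -5.78 on array 1 and -6.33 on array 2, so that genes not above background have no order. The cause of these changes was not tested.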

Other observations

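Several related genes stand on the array under names outside the rule and were looked at after the data were seen. The probe of Il33, the ligand of the receptor encoded by Il1rl1, lay only near flags and was 2.00 in tumour 1 and 2.94 in tumour 2. Il34, a ligand of the macrophage growth factor receptor, was 2.92 and 3.30. Of the probes of Il20rb, 2 lay away from flags and differed in size, with -0.20 and -1.17. A further probe that RefSeq assigns to Il17rd, under a clone name, was 1.10 and 0.07 (difference -1.03), beside -0.30 and 0.41 for the probes named Il17rd. Cxcr2, listed as Il8rb, was -4.05 and -3.58 with its probe away from flags. Cxcr1, listed as Il8ra, was not above background.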
